A study of Mus musculus with 7 samples.

Results

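The naive and memory state of T-cells was followed through 9 genes of the 25033 listed in each library: Tcf7, Lef1, Satb1, Bach2 and Klf2, which encode transcription or chromatin regulators, Ccr7, S1pr1 and Il7r, which encode receptors, and Cd44, which encodes an adhesion receptor. They were matched by gene name, and 9 of 9 passed the filter on low counts. The data were RNA sequencing libraries of primary T-cells from 3 wild-type (WT) mice and 4 ORP4L knock-in (KI) mice, 1 library per mouse, and the comparison asks whether the transcriptome differed between them. The mice were C57BL/6J, aged 15 months, and the KI mice were at a moribund state. The KI allele, in the Rosa26 locus, holds a CAG promoter, a stop cassette flanked by loxP sites, and human ORP4L with a Flag tag followed by EGFP, and Cre came from a transgene under the T-cell promoter Lck. WT mice were littermates, and whether they carried Lck-Cre is not given in the sources used here. The methods describe T-cells from blood or spleen, a kit for naive CD4+ T-cells and culture with IL-2 and the mitogen PHA, but do not say which of these steps the sequenced cells went through. That gap bears directly on genes of the naive state.

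Naive T-cells circulate between blood and lymph nodes, which they enter with the chemokine receptor CCR7 and leave by following sphingosine 1-phosphate through S1PR1. The regulators TCF-1 (Tcf7) and LEF1 are high in naive cells and fall as cells become effectors, KLF2 keeps cells quiescent and drives S1pr1, BACH2 restrains effector programs, and SATB1 organises chromatin. The survival cytokine receptor IL7R is shared by naive and memory cells, whereas the surface protein CD44 is high on activated and memory cells, so Cd44 would be read in the opposite direction to most of the others.

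None of the 9 genes passed the test of ORP4L KI against WT T-cells at the spread between these mice. The log2 fold change (KI over WT) was negative for 7 genes, beside 48.5% of all genes, and positive for Cd44 and Klf2, with a median of −0.38 beside 0.01 over the 13462 genes tested. The edgeR quasi-likelihood test with Benjamini-Hochberg adjustment called 0 of the 9 at an adjusted p under 0.05, where it called 0.0223% of all genes (0.00743% higher and 0.0149% lower in KI), and 0 of the 9 had an unadjusted p under 0.05, where 13.7% of all genes did. Looser lines were also drawn, at a change of more than 1 on the log2 scale in either direction with an unadjusted p under 0.01, and 0 of 9 passed them beside 4.68% of all genes (2.38% higher, 2.3% lower). The standard errors of the 9 log2 fold changes ran from 0.27 to 0.41 (median 0.36, beside 0.29 over all genes), so that the 95% intervals are wide and a missing call does not show equal levels.

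The libraries held 12918187 to 19665679 counts, and the 9 genes between 211 and 22329 counts each. Mouse Osbp2, the ortholog of the gene for ORP4L, had 0, 0 and 1 counts in the WT libraries and 188, 742, 155 and 443 counts in the KI libraries. How reads of the human transgene map to the mouse reference is not given in the sources used here. A fixed list of 16 T-cell genes (among them Cd3e, Lck, Cd4 and Cd8a) was detected in full, none of its genes was called, and it took 0.328% to 0.656% of counts in 6 libraries and 0.176% in ORP4L KI 1. Cd8a, which a CD4+ isolate should lack, stood at 79.6 to 226 CPM (counts relative to library size, scaled by the trimmed mean of M values, TMM). Granulocyte genes (14) took 0.271% to 0.566% of counts in WT and 1.11% to 12.0% in KI, with ORP4L KI 1 at the top. Dendritic cell genes (8; 0.0127% to 0.0268% in KI, 0.0550% to 0.0769% in WT), NK cell genes (8; 0.0128% to 0.0346% in KI, 0.0547% to 0.0674% in WT) and erythroid genes (9; 0.117% to 0.852% in KI, 1.08% to 1.85% in WT) were lower in every KI library by summed share. Gene by gene, all 8 dendritic cell and all 8 NK cell genes were lower by sign, beside 48.5% of all genes. The erythroid list was split, with 5 genes lower and 4 higher in KI. The 15 proliferation genes were higher by summed share in every KI library, at 0.111% to 0.182% against 0.0653% to 0.0982%. B cell genes (11; 0.0242% to 0.0702%) and monocyte and macrophage genes (12; 0.211% to 0.585%) overlapped between groups, and the 12 immediate-early and stress genes took 0.924% in ORP4L KI 1 and 1.71% to 2.73% in the others. No gene of the lists detected was at 0 in all libraries. The part of these shares in the levels of the 9 genes was not tested, and in bulk RNA fewer cells of a type and less RNA per cell cannot be told apart.

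**Figure D1:**
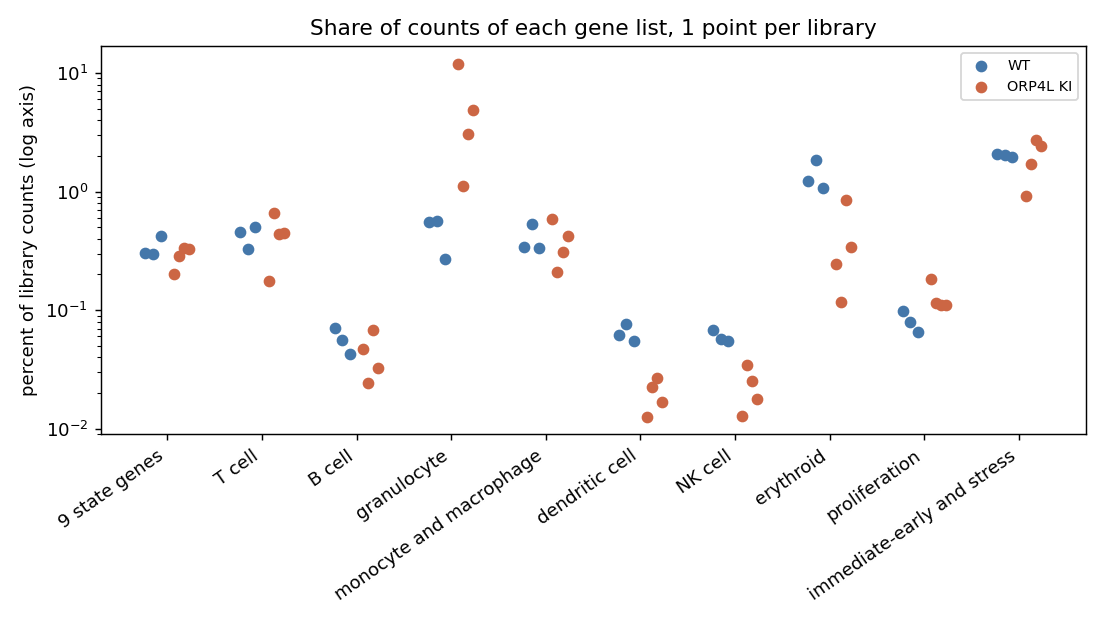
Percent of each library's counts (vertical log axis) taken by the 9 state genes and by fixed lists of marker genes, 1 point per library, WT in blue and ORP4L KI in orange. The granulocyte points of KI lie between 1.11% and 12.0%, above all WT points, and the T-cell list is lowest in ORP4L KI 1 at 0.176%.

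Among the regulators, the transcription factor genes Tcf7, Lef1 and Bach2 had the closest courses across mice, with the lowest level in ORP4L KI 1 and the highest in WT 3. Tcf7 (chr11:52246527-52283383, GRCm38) stood at 464, 353 and 659 CPM in WT 1 to 3 and at 178, 504, 435 and 392 CPM in ORP4L KI 1 to 4. Only ORP4L KI 1 lay below the WT range. Tcf7 had a log2 fold change of −0.38 ± 0.36 (SE), with a 95% interval of −1.18 to 0.42 and an adjusted p of 0.728 by edgeR's quasi-likelihood test.

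Lef1 (chr3:131110297-131224357) encodes the close relative of TCF-1. It stood at 101, 80.2 and 184 CPM in WT and at 36.6, 87.7, 81.3 and 88.8 CPM in KI. Of the KI mice 3 lay close together and inside the WT range, and ORP4L KI 1 lay below every other library. Lef1 had a log2 fold change of −0.73 ± 0.36 (95% interval −1.54 to 0.09, adjusted p = 0.436 in edgeR), and −0.30 without WT 3 or −0.51 without ORP4L KI 1. Bach2 (chr4:32238413-32586109) encodes a repressor that holds back effector genes. Its levels were 38.9, 32.5 and 84.5 CPM in WT and 12.8, 35.8, 35.2 and 31.3 CPM in KI. WT 3 was more than 2 times the other WT mice, and ORP4L KI 1 the lowest of all. The log2 fold change of −0.85 ± 0.41 (95% interval −1.78 to 0.07, adjusted p = 0.412 in edgeR) was the most negative of the 9, and it shrank to −0.31 without WT 3 and to −0.62 without ORP4L KI 1. The annotation places genes on the strand opposite Bach2 (Bach2os), Lef1 (Gm43352), Tcf7 (A630014C17Rik), Cd44 (Gm23731) and Satb1 (Gm6934). Of these genes, only Bach2os was among those listed in the libraries. Whether counting used strand is not given in the sources used here, so that reads of such overlaps cannot be assigned.

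The DNA just before the start sites of these 3 genes is shown because their courses across the mice were the closest among the regulators. The RefSeq promoter table (GRCm38.p6) had 15 windows for 7 of the 9 genes, without entries for Ccr7 and S1pr1. Of each window the 250 bases before the start site were searched on both strands for CTTTGAT (TCF/LEF), CCGGAAGT (ETS), CCACACCC (CACCC box, bound by KLF factors) and TGTTTAC (FOXO), which occur in 3.21%, 2.88%, 3.20% and 3.17% of the 32851 windows in the table. Capitals mark matches, and none overlap. The Tcf7 start shown lies inside the annotated gene, downstream of an annotated exon. Another Tcf7 start lies farther upstream, and its window (chr11:52283015-52283264) held no match and is not shown. Tcf7, chr11:52282596-52282711, minus strand, is the 116 bases between an annotated exon and the start site:
Tcf7: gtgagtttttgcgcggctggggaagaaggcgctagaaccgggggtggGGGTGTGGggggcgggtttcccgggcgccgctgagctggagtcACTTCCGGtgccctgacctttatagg
Lef1, chr3:131110047-131110296, plus strand, and Bach2, chr4:32417185-32417434, plus strand, a start inside the annotated gene, are shown at full length:
Lef1: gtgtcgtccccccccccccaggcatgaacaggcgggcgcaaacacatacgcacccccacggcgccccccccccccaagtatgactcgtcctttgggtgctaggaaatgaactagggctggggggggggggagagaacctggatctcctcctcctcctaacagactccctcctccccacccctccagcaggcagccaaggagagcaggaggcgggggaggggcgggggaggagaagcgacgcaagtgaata
Bach2: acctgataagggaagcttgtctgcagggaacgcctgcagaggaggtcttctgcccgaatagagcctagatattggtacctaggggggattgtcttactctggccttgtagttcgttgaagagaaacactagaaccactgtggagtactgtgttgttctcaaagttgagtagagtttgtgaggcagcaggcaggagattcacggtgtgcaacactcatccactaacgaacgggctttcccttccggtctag
The Tcf7 stretch held the ETS letters starting 26 bases and the CACCC box letters starting 69 bases before the start site, both on the opposite strand. The other 14 windows held none of these letters. A match of letters is a description of the DNA and not of binding.

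Satb1 (chr17:51736187-51833290), which encodes a chromatin organiser of thymocytes and T-cells, stood at 188, 210 and 409 CPM in WT and at 120, 187, 271 and 266 CPM in KI. WT 3 was again the highest library and ORP4L KI 1 the lowest. Satb1 had a log2 fold change of −0.35 ± 0.36 (95% interval −1.15 to 0.45, adjusted p = 0.764 in edgeR), and it turned positive, at 0.09, without WT 3. Klf2 (chr8:72319062-72321654), the quiescence factor that drives S1pr1, behaved unlike the other regulators. It stood at 857, 875 and 652 CPM in WT and at 935, 543, 1203 and 1389 CPM in KI. Of the KI mice 3 lay above the WT range and 1, ORP4L KI 2, below it. Klf2 had a log2 fold change of 0.36 ± 0.32 (95% interval −0.36 to 1.08, adjusted p = 0.719 in edgeR). It was 0.17 without ORP4L KI 4 and stayed positive without any other single library. The genes whose profile over the 7 libraries was nearest to that of Klf2 included Ier2, an immediate-early gene, and Rhob.

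Among the receptors, Ccr7 was the single gene of the 9 whose groups did not overlap in CPM. Ccr7 (chr11:99144199-99155077) stood at 363, 451 and 404 CPM in WT and at 89.9, 205, 358 and 358 CPM in KI. The highest KI mice lay just under the lowest WT mouse, and the spread within KI (SD 130, n = 4) was about as large as the difference between the means (406 ± 43.9 in WT, SD, n = 3, against 253). Of all genes tested, 7.38% had every KI library below every WT library. The log2 fold change was −0.68 ± 0.41 (95% interval −1.61 to 0.25, adjusted p = 0.54 in edgeR), and −0.41 without ORP4L KI 1. The exact two-sided permutation p of Ccr7 was 0.143, where the 35 splits of 7 mice allow no p below 0.0286.

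S1pr1 (chr3:115710433-115715055), the egress receptor, stood at 221, 208 and 469 CPM in WT and at 127, 254, 242 and 272 CPM in KI. Of the KI mice 3 lay above WT 1 and WT 2, whereas WT 3 was the highest of all. S1pr1 had a log2 fold change of −0.42 ± 0.35 (95% interval −1.22 to 0.38, adjusted p = 0.694 in edgeR), and 0.06 without WT 3. Il7r (chr15:9506159-9529941), the IL-7 receptor chain, stood at 187, 149 and 368 CPM in WT and at 126, 334, 237 and 203 CPM in KI. The groups overlapped over nearly their whole range, and the log2 fold change was −0.06 ± 0.38 (95% interval −0.93 to 0.80, adjusted p = 0.966 in edgeR). It was 0.42 without WT 3 and 0.12 without ORP4L KI 1.

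Cd44 (chr2:102811141-102901669), the marker of activated and memory T-cells, stood at 366, 638 and 580 CPM in WT and at 781, 469, 507 and 588 CPM in KI. ORP4L KI 1 was the highest library and WT 1 the lowest, and the other 5 libraries were intermixed. The log2 fold change was 0.15 ± 0.27 (95% interval −0.46 to 0.76, adjusted p = 0.88 in edgeR), which as a fold is 1.11 with an interval of 0.727 to 1.69. Without ORP4L KI 1 it was −0.02. The ratio of Cd44 counts to Ccr7 counts was 1.01, 1.42 and 1.44 in WT and 8.68, 2.28, 1.42 and 1.64 in KI. ORP4L KI 1 stood apart, and the groups overlapped. The ratios of Cd44 to each of the other 7 genes overlapped too, and ORP4L KI 1 had the highest ratio for all of them except Klf2. Many blood cells other than T-cells, granulocytes included, carry CD44, and ORP4L KI 1 was the library with 12.0% granulocyte counts. Its part in the level of Cd44 was not tested.

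**Figure D2:**
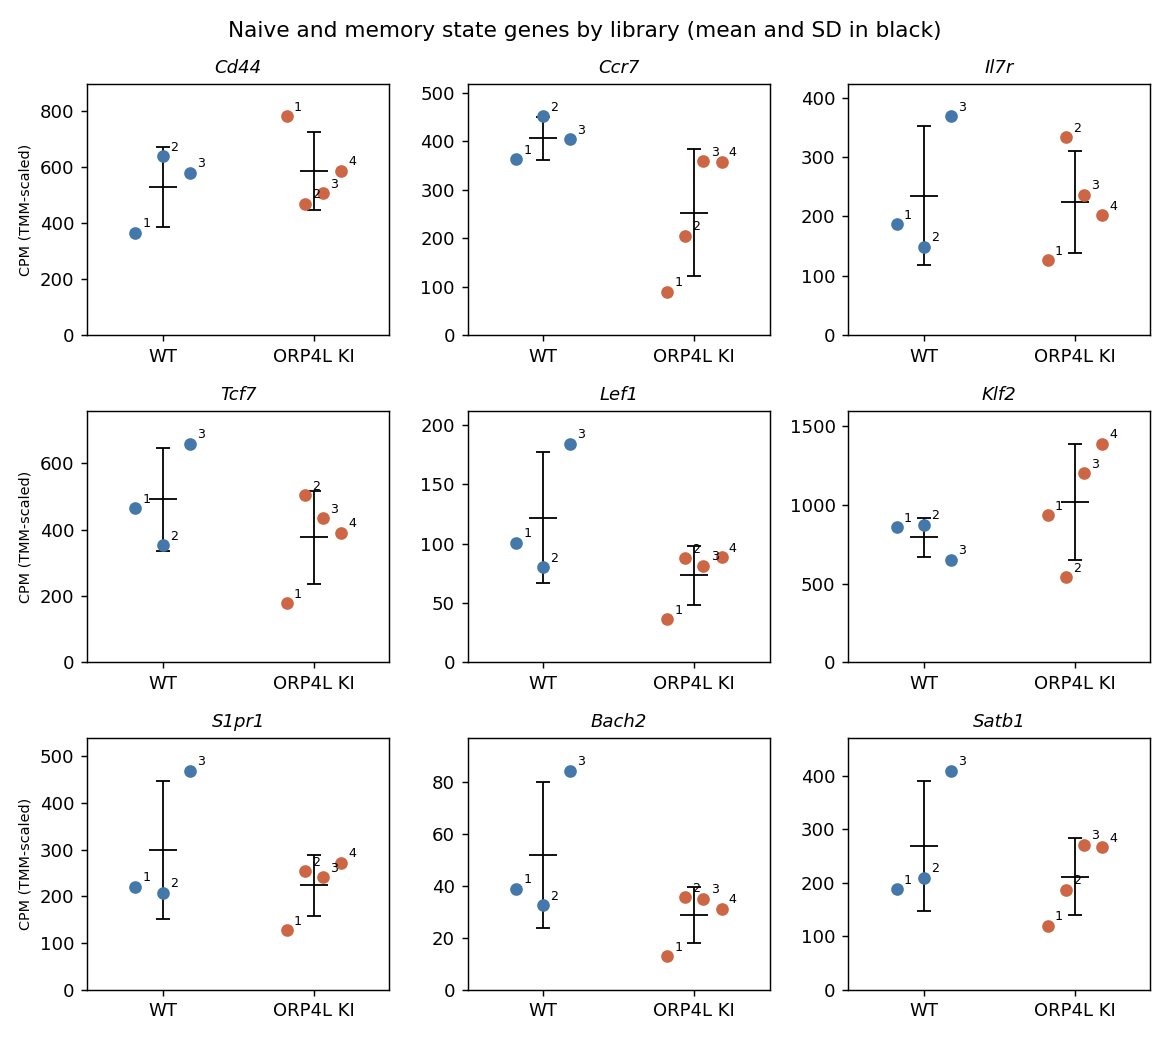
TMM-scaled CPM (vertical axis, from 0) of each of the 9 genes in the 3 WT libraries (blue) and the 4 ORP4L KI libraries (orange), numbered by replicate, with mean and SD in black. ORP4L KI 1 is the lowest library for 7 genes and WT 3 the highest for 6, and only Ccr7 separates the groups.

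**Figure D3:**
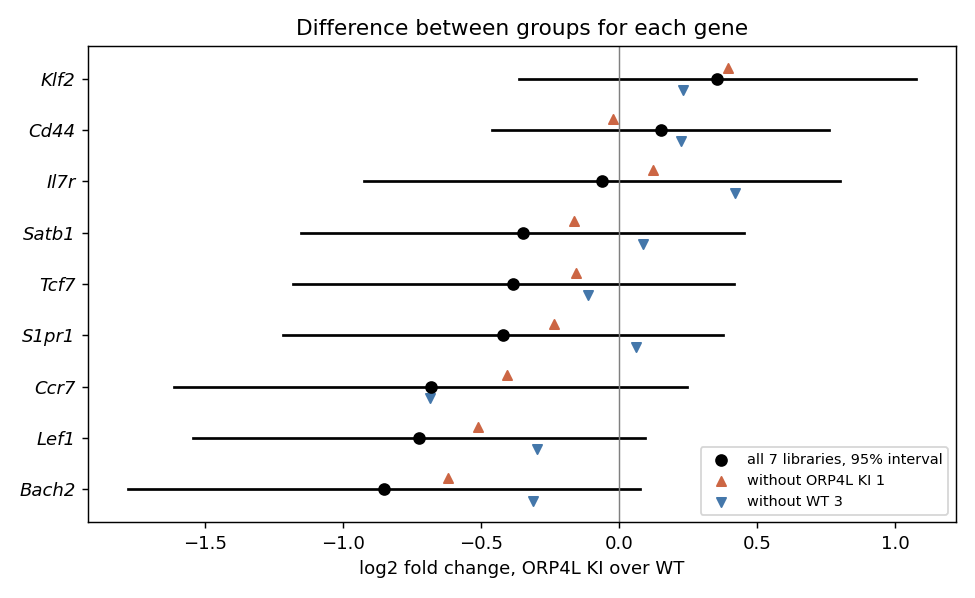
Log2 fold change of ORP4L KI over WT for the 9 genes from all 7 libraries (black, line: 95% interval), without ORP4L KI 1 (orange triangles) and without WT 3 (blue triangles). Every interval crosses 0, and the estimates of Il7r, S1pr1 and Satb1 become positive without WT 3.

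A pair of libraries stood at the ends of the range for most of the 9 genes. ORP4L KI 1 was the lowest library for 7 of the 9 genes (all but Cd44 and Klf2), where it was the lowest for 28.1% of all genes tested. WT 3 was the highest for 6 of the 9 (Il7r, Tcf7, Lef1, S1pr1, Bach2 and Satb1), beside 18.2% of all genes. WT 3 had the smallest granulocyte share, at 0.271%, and the second highest T-cell gene share, at 0.500%. Among pairs of the 9 genes the closest profiles over the 7 libraries, measured as the root mean square difference of centred log2 CPM, were those of Lef1 and Bach2 (0.13), then of S1pr1 and Satb1 (0.18) and of Lef1 and S1pr1 (0.20). Outside the 9 genes, the nearest profile was that of Il6st, the signal chain of the IL-6 receptor, for Bach2 (0.09), Tmem64 for Lef1 (0.11), Scml4 for S1pr1 (0.10), Card6 for Il7r (0.07), Rasgrf2 for Tcf7 (0.09), Acer2 for Satb1 (0.14), Clcf1 for Ccr7 (0.22) and Osgin2 for Cd44 (0.08), out of 11589 genes compared. All profiles come from the same 7 libraries, and this likeness is a description.

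Because the share of T-cell transcripts differed between libraries, the counts of the 9 genes were also set against the 16 T-cell genes. Counted per 1000 T-cell gene counts, Lef1 stood at 23.8, 24.4 and 40.6 in WT and at 17.4, 14.6, 18.5 and 18.2 in KI. The KI mice now lay close together and all below WT, with ORP4L KI 1 no longer apart. Tcf7 stood at 109.7, 107.7 and 145 in WT and at 84.5, 83.7, 99.0 and 80.2 in KI on this scale. Bach2 stood at 9.20, 9.91 and 18.6 in WT and at 6.09, 5.94, 8.0 and 6.41 in KI. For these 3 transcription factors every KI mouse lay below every WT mouse. Ccr7 did so as well, at 85.8, 137 and 89.0 in WT and at 42.6, 34.1, 81.5 and 73.2 in KI. This scale does not take out transcripts of other cells, and which cells the counts came from was not tested.

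On this scale 4 of 9 genes had groups that did not overlap, all lower in KI, where 4.46% of all genes tested were lower without overlap and 2.07% higher, and ORP4L KI 1 was the lowest library for 0 of 9. The exact two-sided permutation p, one of 9 such tests and without correction, was 0.0286 for Tcf7, Lef1 and Bach2, the smallest that the 35 splits allow, and 0.0857 for Ccr7. These p-values rest on the same scaled values as the count of 4 and are not a separate result. With the T-cell gene counts as library size, edgeR's quasi-likelihood test over all genes called none of the 9. The log2 fold changes were then −0.93 for Bach2 (unadjusted p = 0.0375, adjusted p = 0.694), −0.85 for Ccr7 (adjusted p = 0.891), −0.79 for Lef1 (adjusted p = 0.798) and −0.48 for Tcf7 (adjusted p = 0.9995). The median over all genes on this scale was 0.08. The count of 4 depended on the reference genes. Against 7 genes of the T-cell receptor complex and its proximal signaling (Cd3d, Cd3e, Cd3g, Cd247, Lck, Zap70 and Lat), chosen after the values above were seen, 1 of 9 genes did not overlap, beside 4.67% of all genes lower without overlap (2.0% higher). That gene was Lef1, at 53.7, 58.5 and 115 per 1000 in WT and 39.3, 37.2, 48.1 and 44.0 in KI. ORP4L KI 3 moved into the WT range for the others, at 257 against 247 in WT 1 for Tcf7, 20.77 against 20.74 for Bach2 and 212 against 193 for Ccr7.

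**Figure D4:**
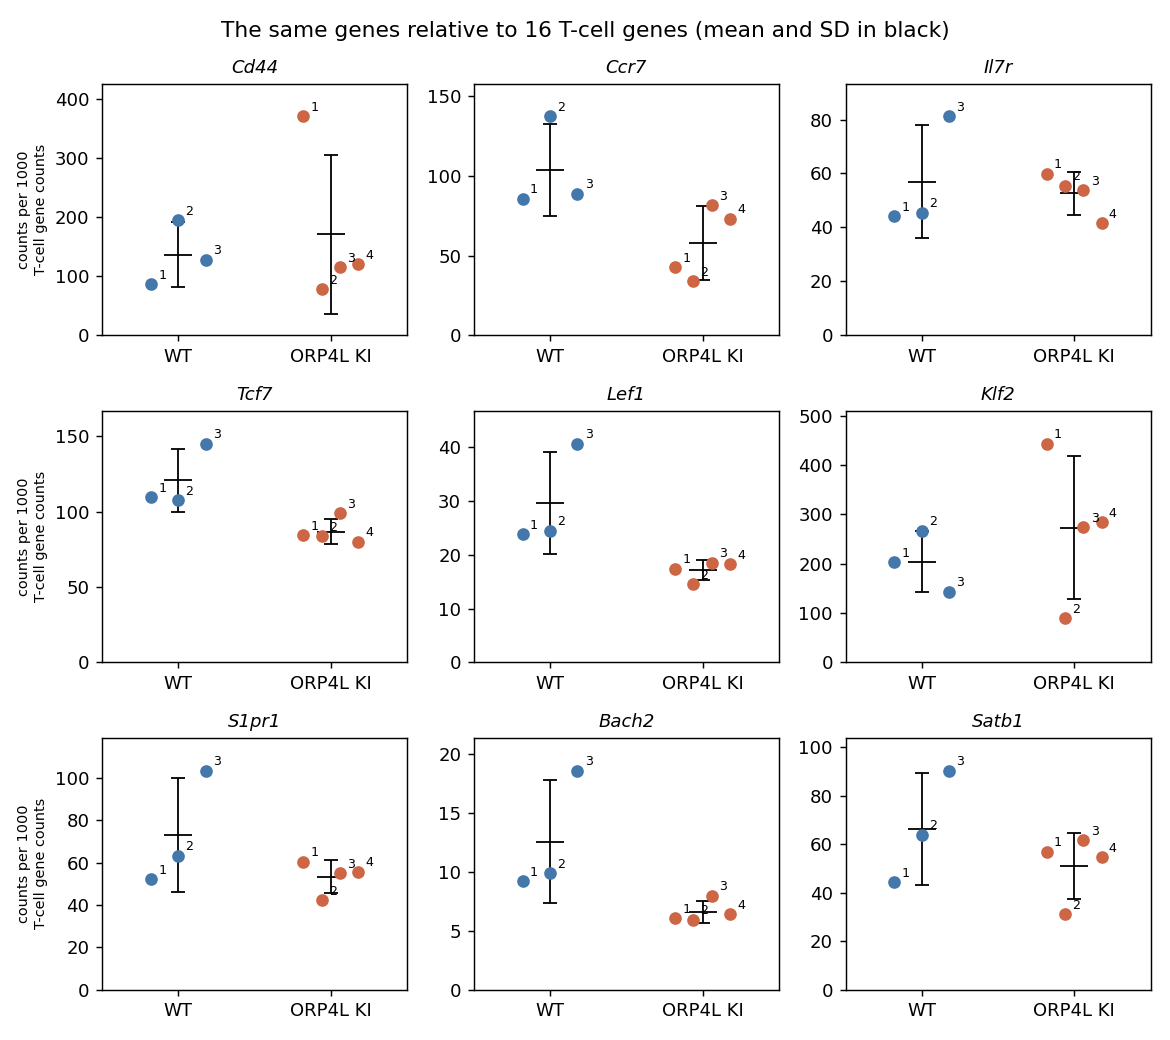
Counts of each of the 9 genes per 1000 counts of 16 T-cell genes (vertical axis, from 0) by library, WT in blue and ORP4L KI in orange, numbered by replicate, with mean and SD in black. Lef1, Tcf7, Bach2 and Ccr7 lie lower in all 4 KI mice than in any WT mouse, and the other 5 genes overlap.

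For the remaining 5 genes the groups overlapped relative to T-cell genes. S1pr1 stood at 52.2 to 103 per 1000 in WT and 42.2 to 60.3 in KI, Satb1 at 44.4 to 90.2 and 31.1 to 61.7, and Il7r at 44.1 to 81.1 and 41.5 to 59.9. Cd44 reached 370 in ORP4L KI 1 and lay at 77.9 to 120 in the other KI mice, with WT at 86.6 to 195. Klf2 ran from 90.2 to 443 in KI, a range wider than that of WT (144 to 267).

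Levels were compared between genes only in the deposited RPKM, which divides by transcript length and library size. Klf2 was the most abundant of the 9 in WT, at a mean level of 462 ± 59.6 RPKM (SD, n = 3), followed by Ccr7 (217 ± 16.1), Tcf7 (195 ± 69.7), Cd44 (110 ± 27.6), S1pr1 (106 ± 56.2), Il7r (78.6 ± 42.2), Satb1 (46.4 ± 22.8), Lef1 (37.0 ± 18.2) and Bach2 (6.58 ± 3.83). Neighbours differed by less than the larger of their SDs for Ccr7 and Tcf7, Cd44 and S1pr1, S1pr1 and Il7r, Il7r and Satb1, and Satb1 and Lef1. In KI the order of the mean RPKM was the same except that Tcf7 (138 ± 62.4, SD, n = 4) stood above Ccr7 (125 ± 64.6), a difference well within the SD of either. Klf2 stayed the highest (529 ± 181) and Bach2 the lowest (3.34 ± 1.47).

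Of 22 further genes of naive and quiescent T-cells, 0 were called by edgeR at an adjusted p under 0.05, 0 passed the looser lines, and 1 (Slfn2) had an unadjusted p under 0.05, beside 13.7% of all genes. By sign 10 were higher and 12 lower in KI, with a median log2 fold change of −0.03 beside 0.01 over all genes. At the lower end were Dapl1, a transcript typical of naive cells (−0.91 ± 0.51), and Itgb7, an integrin chain for homing to the gut (−0.54 ± 0.26). At the upper end were Slfn2, a quiescence gene (0.70 ± 0.27, adjusted p = 0.287), Tob1, an antiproliferative gene (0.30 ± 0.31), and S1pr4, a lymphocyte sphingosine 1-phosphate receptor (0.30 ± 0.18). Groups did not overlap for 1 gene in each direction, S1pr4 higher and Itgb7 lower, beside 6.43% and 7.38% of all genes.

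Of 25 genes of effector and memory T-cells, 17 were higher and 8 lower in KI by sign, with a median log2 fold change of 0.42. edgeR's quasi-likelihood test called 0 of them at an adjusted p under 0.05, 6 had an unadjusted p under 0.05 (5 higher and Klrg1 lower in KI) beside 13.7% of all genes, and 2 passed the looser lines, both higher, beside the 2.38% of all genes given above. Those were Gzmk, which encodes a granzyme of memory and cytotoxic T-cells, and Ccl5, a chemokine gene, which is named after its value was seen. Gzmk stood at 11.2, 3.77 and 7.73 CPM in WT and at 38.2, 206, 56.5 and 51.2 CPM in KI. Every KI mouse lay above every WT mouse, with ORP4L KI 2 far above the rest. The log2 fold change was 3.54 ± 0.68 (95% interval 2.01 to 5.06), and the adjusted p was 0.0659. Ccl5 stood at 435, 358 and 241 CPM in WT and at 679, 1000, 656 and 644 CPM in KI, again without overlap (log2 fold change 1.11 ± 0.28, adjusted p = 0.11). Eomes, a T-box factor of memory and cytotoxic cells, stood at 92.7, 65.9 and 101 CPM in WT and at 105, 534, 218 and 184 CPM in KI (1.59 ± 0.50, adjusted p = 0.178). DESeq2's Wald test and edgeR's likelihood ratio and exact tests called Gzmk, Ccl5 and Eomes, 3 of the 25, where they called 5.83%, 5.24% and 5.07% of all genes.

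S100a6 (1.53 ± 0.61), a calcium-binding protein gene, was highest in ORP4L KI 1 at 1085 CPM and overlapped between groups. At the lower end were Klrg1, a receptor of terminal effectors (−0.77 ± 0.34), the chemokine receptor gene Cx3cr1 (−0.67 ± 0.30) and S100a4 (−0.58 ± 0.31), with adjusted p between 0.353 and 0.473. Groups did not overlap for 4 of the 25 genes, all higher in KI, beside 6.43% of all genes: Gzmk, Ccl5, Eomes and Nkg7. NK cells also express Gzmk, Ccl5, Eomes and Nkg7. The 8 NK cell genes were all lower in KI by sign, beside 48.5% of all genes. Of them 6 were past the looser lines, beside 2.3% of all genes lower at those lines. Which cells the transcripts of this list came from was not tested, for the lower genes Klrg1, Cx3cr1 and S100a4 as for the higher ones.

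**Figure D5:**
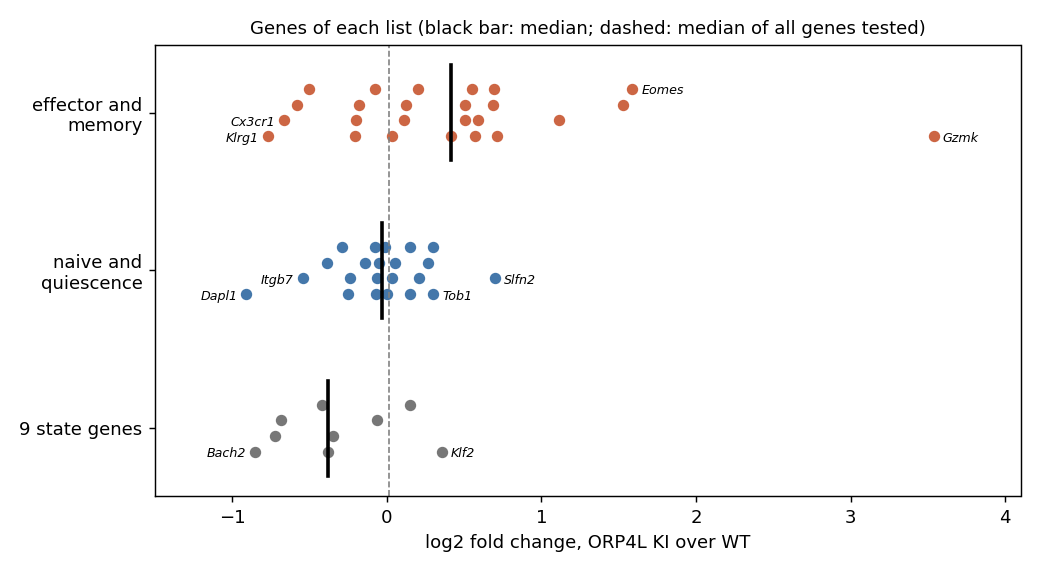
Log2 fold change of ORP4L KI over WT (horizontal axis) for each of the 9 state genes, 22 naive and quiescence genes and 25 effector and memory genes, 1 point per gene with vertical offsets for legibility, the list's median as a black bar and the median of all genes dashed. The medians are −0.38, −0.03 and 0.42, and Gzmk lies farthest out at 3.54.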

How the data were processed

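RNA was extracted with Trizol and libraries were made with the VAHTS mRNA-seq V3 kit and sequenced on an Illumina NovaSeq. Per the methods and labels, the authors trimmed adapters, dropped short reads, mapped to a mouse mRNA reference (build mm10) with FANSe3 and merged splice variants. The authors deposited a read count per gene, not normalized, and its RPKM over the longest transcript. Reference version, strand and handling of multiply mapped reads are not given in the sources used here.

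Groups came from the labels. Raw counts were tested in edgeR 4.0.16 (R 4.3.3, limma 3.58.1): filterByExpr (minimum count 10), TMM, quasi-likelihood test of 4 KI against 3 WT libraries without covariates, Benjamini-Hochberg over 13462 genes. The sequencing methods name no test for these data, and the study's general statement for comparisons of a pair of groups is an unpaired test of means, which was not used here. Figures show CPM on TMM-scaled sizes. Differences of group mean log2 levels were tested per gene by exact permutation over all 35 splits (NumPy 2.4.6). On simulated counts with 194 genes changed by a log2 fold change of 2 among 13253, the adjusted p recovered 163 and called 10 others. DESeq2 1.42.0 and other scalings, filters, tests and left-out libraries were alternatives. Likeness was the root mean square difference between centred log2 CPM profiles, among genes with a mean log2 CPM of at least 1.

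Named genes were all 9 genes, the 3 highest and 3 lowest fold changes of the naive and effector lists, and the 3 nearest profiles to each gene, of which the first is mostly given. A gene under this rule is not reported here. The genes and lists were chosen with earlier results of these data known. No 2 libraries held identical counts. Nothing in the labels names separate cultures, but the study describes separate mice, and library preparation batches are not given.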

Additional observations from a re-analysis of the deposited data

Results flagged for a closer look

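Of 21 sets of 4 KI libraries examined for a single value far from the others, 2 held one, where chance would give about 1.05. That figure takes the sets as independent, whereas part of the genes were picked by their fold changes in the same libraries. It is therefore no yardstick here. Lef1 in ORP4L KI 1 stood at 36.6 CPM, while the other KI libraries lay at 81.3 to 88.8 CPM. Relative to T-cell genes the same library was not apart. Gzmk in ORP4L KI 2 stood at 206 CPM, while the other KI libraries lay at 38.2 to 56.5 CPM. That library had the highest share of T-cell gene counts, 0.656%. The part of library composition in either value was not tested.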

How the results depend on the processing

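No alternative among the 19 run called any of the 9 genes at an adjusted p under 0.05 or at the looser lines, and the smallest adjusted p of a member was 0.298. Of 171 fold changes of the 9 genes under the alternatives, 164 kept their sign and 7 turned. Cd44 became −0.014 on total counts, −0.056 without WT 1 and −0.02 without ORP4L KI 1. Il7r became 0.42 without WT 3 and 0.12 without ORP4L KI 1, and without WT 3 S1pr1 became 0.063 and Satb1 0.088. Leaving out single libraries moved Bach2 between −1.10 and −0.31, Ccr7 between −0.90 and −0.41, Lef1 between −0.95 and −0.30, Tcf7 between −0.58 and −0.11, Klf2 between 0.17 and 0.55, Cd44 between −0.056 and 0.31, Il7r between −0.34 and 0.42, S1pr1 between −0.63 and 0.063 and Satb1 between −0.55 and 0.088. Members whose groups do not overlap numbered 1 in CPM and against the 7 T-cell receptor genes, and 4 against the T-cell list. On total counts the median of all genes was −0.13.

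The effector and memory list had 0 calls in the main test, 1 with no filter (Gzmk), 3 by DESeq2's Wald test, 3 by the likelihood ratio test, 3 by the exact test and 2 at the looser lines. Leaving out single libraries gave 0 to 1, the 1 being Gzmk without ORP4L KI 2 (log2 fold change 2.67). At the looser lines the effector count was 1 on total counts, without WT 2 and without WT 3, and 4 by DESeq2. Over all genes, calls at an adjusted p under 0.05 numbered 3 in the main test, 784 by DESeq2's Wald test, 706 and 682 by the likelihood ratio and exact tests, 176 with no filter, 113 on total counts, 44 with upper-quartile scaling, 342 without ORP4L KI 2 and 0 with 10 counts in every sample. The causes of these differences were not tested.

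Same-numbered mice did not deviate together (correlations across genes 0.15, −0.53 and −0.00), so the numbers were not taken as pairs. With a replicate block over replicates 1 to 3, 48 genes in all passed and 0 without the block. The block gave 0 calls among the 9 genes, with Ccr7 at −1.11, Bach2 at −0.92 and Lef1 at −0.85.

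With 3 and 4 mice the intervals of the 9 genes include 0, and detection was simulated only for a log2 fold change of 2.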
